A study of Xenopus tropicalis with 54 samples.

Results

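*gli1* and *hhip* encode opposing members of the Hedgehog pathway, and the positions of β-catenin (Bcat) ChIP-seq peaks around these genes were compared in gastrulae of the frog *Xenopus tropicalis*. Every peak of the deposited list within 50 kb of a coordinate that the study's supplementary tables list for either symbol was taken as a member. This gave 9 of the 11711 peaks of the list, 8 at *gli1* and 1 at *hhip*. The genes were chosen with results on these data known, and the lists used to place them include the Bcat peaks of each gene, so the peak numbers are a description of these loci and carry no test.

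The series holds 54 samples of whole embryos of the Nigerian strain. Sox17 ChIP-seq was done in 2 replicates at Nieuwkoop-Faber stage 10.5 (NF10.5), and 52 RNA-seq samples cover embryos injected with antisense morpholinos against Sox17 (NF9 to NF12) or *ctnnb1*, the gene of Bcat (NF7 to NF12), with their controls. Expression was not analysed here. The deposited values used were the start and end of each peak in 1 list, beside which the supplement gave the coordinates of Sox17 peaks and co-bound windows and the site numbers of the windows. The list carries the name of Sox17, but all 1999 of the Bcat peaks at hand from the supplement stood in it with the same start and end, while 0 of the 1999 Sox17 peaks at hand did. It was therefore read as the Bcat list, which the authors called from 1 published library of gastrulae and not from a sample of this series. No replicate spread, height or depth is known for any peak, and whole embryos do not show which cells a peak comes from.

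Hedgehog ligands are secreted proteins that bind a cell-surface receptor and so release Smoothened, which in turn activates Gli transcription factors. *gli1* encodes such a zinc-finger factor and in vertebrates is itself a transcriptional target of the pathway, and *hhip* encodes a cell-surface protein that binds the ligands and limits their reach. In the gut, the endodermal epithelium sends Hedgehog signals to the mesenchyme around it. Bcat is the transcriptional effector of canonical Wnt signalling and reaches DNA through partners, mainly the Tcf/Lef factors, whereas Sox17 is an HMG-box factor of the endoderm that binds DNA itself.

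By qPCR after Bcat ChIP followed by Sox17 ChIP, the study reported enrichment over control IgG at a *gli1* site. It took this as both factors binding there at the same time in endodermal cells. For ChIP-qPCR at *gli1* the study used the primer pair named +7.5 kb, shown because these are the only bases of the locus at hand. Both primers are 20 bases long, are printed 5′ to 3′ with no part capitalised, and were not placed on the genome here.
gli1 forward primer: ctgtccttcaggcacataac
gli1 reverse primer: agctctgtagcacctctaat

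Bcat peaks were dense at *gli1*. The coordinates listed for this gene ran over 27.2 kb of chromosome 2, from 137101941 to 137129105 in version 9.0 of the genome, and held 7 Bcat peaks, 4 Sox17 peaks and 4 co-bound windows. A co-bound window is a stretch of 150 bp that the supplement lists for a gene taken as a target of Sox17 and Bcat alike. The remaining member, the first in order along the chromosome, lay 29.6 kb before the first listed base, and the supplementary rows at hand assign it to no gene. The next peaks of the list lay 356 kb before the first member and 138 kb after the last, so all 8 members stood in a stretch of 551 kb that held no other peak.

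At *hhip* a single Bcat peak was found. The coordinates listed for this gene ran over 35.9 kb of chromosome 1, from 49468300 to 49504200, with 1 Bcat peak at one end and 2 Sox17 peaks and 2 co-bound windows at the other. The *hhip* peak ran from 49468300 to 49468684. Its neighbours in the list lay 172 kb before and 194 kb after it, which left 367 kb of chromosome with this peak alone. Per 100 kb of searched sequence there were 6.29 members at *gli1* and 0.736 at *hhip*. Members covered 3.04% of the searched bases at *gli1* and 0.283% at *hhip*. The protein-coding neighbours in the RefSeq annotation of UCB_Xtro_10.0, a later build used for gene order only, are *inhbc.1* and LOC116408883 for *gli1* and *smad1* and *anapc10* for *hhip*, and no other gene in the rows at hand had a listed peak in the searched regions. Exon and intron positions were not analysed here.

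**Figure D1:**
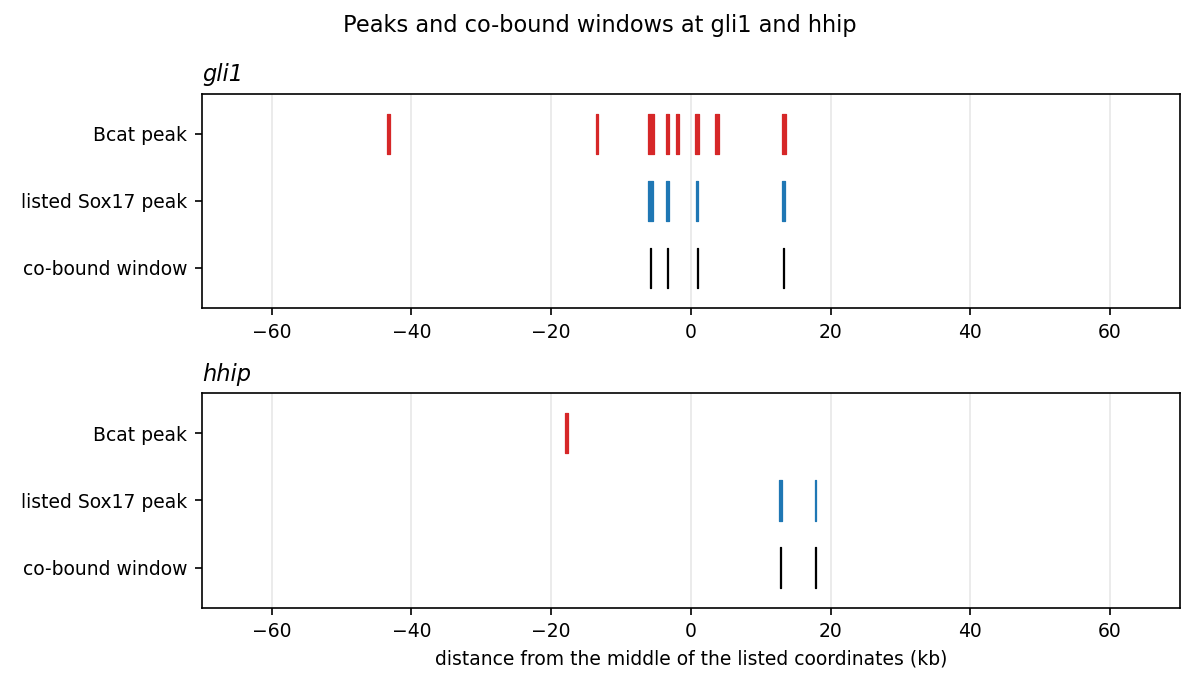
Positions of Bcat peaks (red), listed Sox17 peaks (blue) and co-bound windows (black) at *gli1* and *hhip*, with the distance from the middle of the listed coordinates in kb on the x axis and both loci at the same scale. All 4 *gli1* windows and Sox17 peaks lie under a Bcat peak, whereas the *hhip* windows lie 30.3 and 35.3 kb from the only Bcat peak.

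The members at *gli1* were not evenly spaced. In order along the chromosome, the peaks began at 137072066, 137101941, 137109334, 137111963, 137113448, 137116073, 137119051 and 137128620. The third to the seventh formed the core of the group, with 1726, 1074, 2221 and 2408 bp between them. The second stood 7123 bp before this core and the eighth 9061 bp after it. Over the 6 gaps between the listed peaks, which leave out the 29.6 kb after the first member, the median was 2315 bp. The median distance from a peak of the whole list to the nearer of its neighbours was 9230 bp, which is not the same measure. With itself included, each *gli1* peak had 7 or 8 peaks within 50 kb, against a median of 3 over the whole list. A count of at least 8, the highest among the *gli1* members, was reached by 6 of the 8 and by 14.1% of all peaks. A count of at least 7 was reached by all 8 members and by 19.3% of all peaks. These 8 members count one another, so their counts describe the same group and are not separate observations. The members were also chosen by nearness to coordinates that include the listed Bcat peaks, so these shares are no test of density. The *hhip* peak was among the 24.8% of peaks with no other peak within 50 kb, and 820 peaks of the list had a longer distance to their nearest neighbour.

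Peak widths ranged widely at *gli1* and were unremarkable at *hhip*. In order along the chromosome, the *gli1* peaks were 319, 270, 903, 411, 404, 570, 508 and 486 bp wide, with a median of 449 bp. The *hhip* peak was 385 bp wide, which is 1 bp under the median of the whole list (386 bp, range 199 to 5696 bp), and 49.4% of all peaks were narrower. The widest member was the third *gli1* peak (137109334 to 137110236), and 2.06% of all peaks were at least as wide. The narrowest was the second *gli1* peak (137101941 to 137102210), than which 8.51% of all peaks were narrower. A width of at least 300 bp was reached by 7 of the 8 *gli1* peaks, by the *hhip* peak and by 81.9% of all peaks.

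The 4 *gli1* peaks that held a co-bound window were 903, 411, 570 and 486 bp wide. Those without a window were 319, 270, 404 and 508 bp wide. The medians were 528 and 362 bp, but the ranges overlapped, since the seventh peak (508 bp, no window) was wider than the fourth (411 bp) and the eighth (486 bp). Across all genes, the 120 peaks that held a window had a median width of 450 bp. The 2 peaks farthest from the windows, the first and the second, were also the narrowest at this locus. The other peaks without a window stood close to one, the fifth at 1158 bp and the seventh at 2560 bp.

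**Figure D2:**
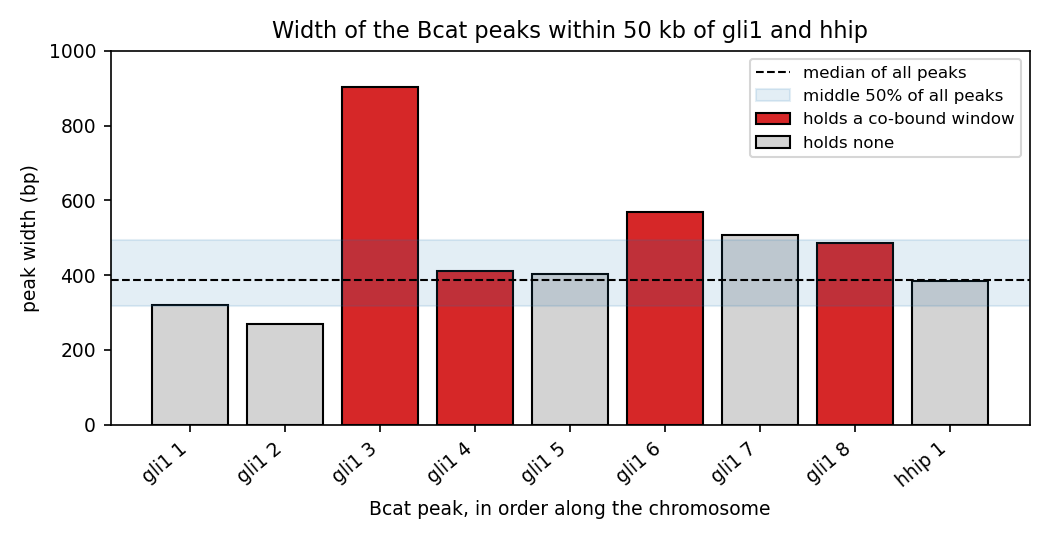
Width in bp of each of the 8 *gli1* peaks and the *hhip* peak, in order along the chromosome, with peaks that hold a co-bound window in red. The dashed line is the median of all 11711 peaks (386 bp) and the band their middle 50% (317 to 494 bp), and 3 *gli1* peaks rise above it (903, 570 and 508 bp).

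All 4 co-bound windows of *gli1* shared bases with a Bcat peak, and neither *hhip* window did. Over the 191 windows of 84 genes the share was 62.8%. The exact Clopper-Pearson 95% interval ran from 39.8 to 100% for 4 of 4 and from 0 to 84.2% for 0 of 2. These intervals cover counting error only and treat windows of 1 gene as independent, and so few windows cannot set either gene apart from the share over all windows. The windows were selected by the study as co-bound, yet 71 of the 191, those of *hhip* among them, shared no base with a peak of this list. By its coordinates, each window of *gli1* and *hhip* lies at the middle of a Sox17 peak listed for the gene. For these 2 genes a window thus marks a listed Sox17 peak, and at *hhip* it held no Bcat peak. The windows of the other genes were not placed against Sox17 peaks here. Depth also limits the statement on windows without a peak, because binding under the caller's threshold leaves no entry in a peak list.

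Each *gli1* window lay wholly inside its peak, as did 60.7% of all windows. From the first window to the last, the centres of window and peak were 81.5, 46.5, 58.0 and 49.0 bp apart, compared with a median of 31.8 bp over the 120 windows with a peak. All 4 values were above that median and far below the highest (295 bp). Because each *gli1* window lies at the middle of a listed Sox17 peak, these 4 values are in effect the distances between Sox17 and Bcat peak centres. The first window, from 137109629 to 137109778, was off centre in the widest peak of the locus. The windows of *hhip*, from 49499003 to 49499152 and from 49504010 to 49504159, lay 30.3 and 35.3 kb from the *hhip* peak. Of the 71 windows without a Bcat peak, 11 were farther from one than the first *hhip* window and 7 farther than the second.

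The listed Sox17 peaks showed the same arrangement, but this is no separate evidence, because each of them held a window described above. At *gli1*, the Sox17 peaks were 691, 442, 331 and 413 bp wide, and 100%, 86.2%, 100% and 96.9% of their bases lay in a Bcat peak. Each of the 4 thus had its own Bcat partner, and the first, the second, the fifth and the seventh Bcat peaks met no Sox17 peak listed for this gene. At *hhip*, the Sox17 peaks were 316 and 233 bp wide and shared 0 bases with a Bcat peak, from which they were 30.2 and 35.3 kb away. Each of these 6 Sox17 peaks had a co-bound window at its middle and was wider than that window. That the windows lay wholly inside the Sox17 peaks was therefore built in. The Sox17 coordinates are those listed for the genes and were not called again here.

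**Figure D3:**
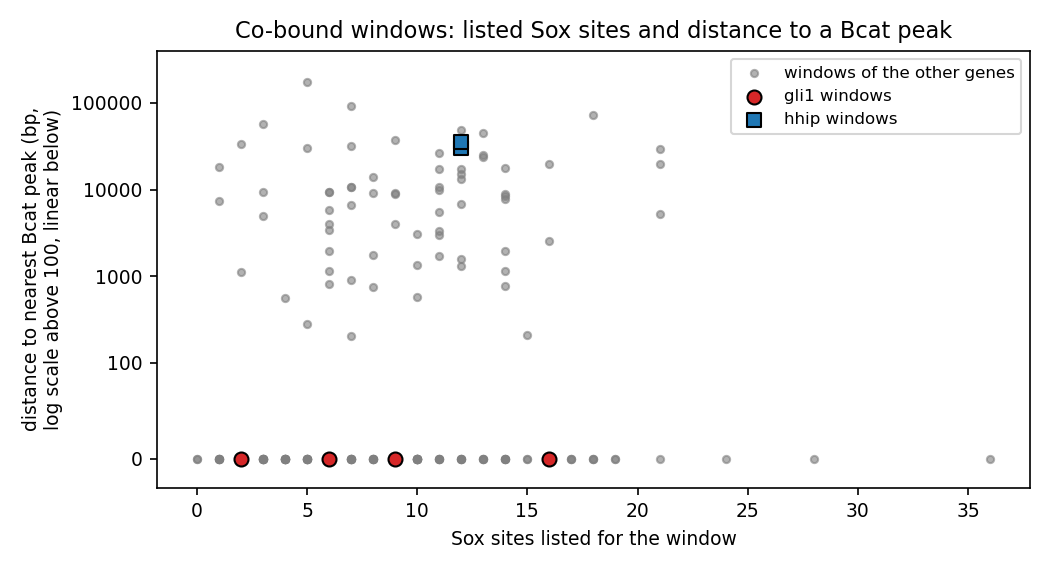
Each of the 191 co-bound windows by the number of Sox sites listed for it (x axis) and its distance in bp to the nearest Bcat peak (y axis, linear up to 100 bp and logarithmic above). The *gli1* windows (red) sit at 0 bp with 2 to 16 Sox sites, and the *hhip* windows (blue) sit above 30 kb with 12 each.

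The Sox and Tcf sites listed per window were taken from the supplement and not searched again here. By the study's methods, such sites are motif matches found by scanning the sequence, so their number is not a count of bound sites. The *gli1* windows were listed with 2, 16, 6 and 9 Sox sites and with 0, 1, 1 and 2 Tcf sites, in order along the chromosome. Both *hhip* windows were listed with 12 Sox sites and 2 Tcf sites. The *hhip* windows without a Bcat peak were therefore listed with as many Tcf sites as the richest *gli1* window, and with more Sox sites than 3 of the 4. The median over all windows was 8 Sox and 2 Tcf sites.

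Within *gli1*, the window with the fewest listed sites lay in the widest peak. The first window was listed with 2 Sox sites and no Tcf site and lay in the 903 bp peak. The second window had the most Sox sites, 16, a number exceeded in 16 of the 191 windows, and lay in the narrowest peak with a window (411 bp). These 4 windows are too few to relate site number to peak width, which was not tested. Sites of both kinds were listed in 3 of the 4 *gli1* windows and in both *hhip* windows, against 77.5% over all windows. When at least 2 sites of each kind were required, 1 *gli1* window and both *hhip* windows remained, against 104 of the 191 windows of all genes.

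Windows with and without a Bcat peak overlapped in their numbers of Sox sites. The median was 10 Sox sites for the 71 windows without a peak and 7.5 for the 120 with one, and of the 22 windows with at most 2 Sox sites, 18 had a peak (81.8%, exact interval 59.7 to 94.8%). Of the 55 windows with at least 12 Sox sites, 29 shared bases with a Bcat peak (52.7%, 38.8 to 66.4%), against 62.8% of all windows, and these shares were not tested against each other. Of the 34 windows that also had at least 2 Tcf sites, 20 did (58.8%, 40.7 to 75.4%). A window of *sox21*, a SoxB-type gene, was listed with the same 12 Sox and 2 Tcf sites as those of *hhip* and lay in a Bcat peak over all of its 150 bases. The first *gli1* window had a peak and no Tcf site, and so had 27 of the 43 windows with no Tcf site (62.8%, 46.7 to 77.0%). All of these intervals treat windows of 1 gene as independent, although several windows of *sox17a* had at most 2 Sox sites.

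The place of both genes among the 84 with co-bound windows was taken from the number of Bcat peaks within 50 kb of their windows. That number ran from 0 to 25 with a median of 3. It was not scaled to the searched stretch, which differed between genes because their windows differed in number and spread. *gli1* had 8 peaks, with 5 genes above it, 2 level with it (*dkkx* and *sox21*) and 76 below. The next higher count was 9, at *dkk1*, which encodes a secreted Wnt antagonist, and *igf3*, an insulin-like growth factor gene, and the next lower was 6, at *ripply2.1*. With 100 kb in place of 50 kb, 10 genes stood above *gli1*. *hhip* had 1 peak, as did 19 other genes, and 1 gene (*plscr2*) had 0. By bases covered, *gli1* peaks summed to 3871 bp and those of 7 genes to more, while *hhip* reached 385 bp against a median of 1247 bp.

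**Figure D4:**
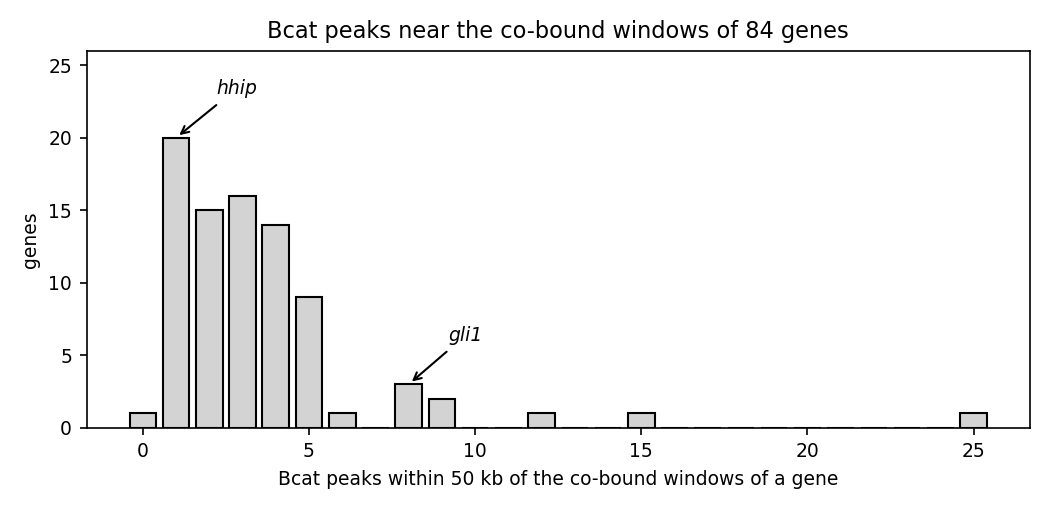
Number of genes (y axis) by the number of Bcat peaks within 50 kb of their co-bound windows (x axis), for the 84 genes with such windows. *gli1* stands at 8 peaks, above 76 genes, and *hhip* at 1 peak with 19 other genes.

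The genes most like each member by their windows were few. At least 4 windows, each with a Bcat peak, were found for *gli1* and *ntn3* of the 18 genes with that many windows, and *ntn3* had 5 windows and 5 peaks within 50 kb. Over all 84 genes, whatever their number of windows, 46.4% had a peak at every window. At least 2 windows and a peak at none were found for *hhip*, *acy3*, *cd74*, *gfi1* and LOC101734297-like, 5 of the 50 genes with that many windows. Over all 84 genes, 13.1% had a peak at no window. The nearest window of *acy3* was 0.28 kb from a peak, and those of *cd74*, *gfi1* (a zinc-finger repressor gene) and LOC101734297-like 1.30, 9.33 and 13.4 kb. The nearest *hhip* window, at 30.3 kb, was farther than any of these, but the only window of *plscr2* lay 57.1 kb from its nearest peak.

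Other genes of the pathway were placed in the same way. Of 33 genes taken as Hedgehog components, 10 could be located from the rows at hand, and the other 23 were not analysed here. Locating a gene used its listed peaks, Bcat peaks among them for 9 of the 10, so a peak near these genes was largely built in. All 8 located genes other than *gli1* and *hhip* had between 2 and 18 Bcat peaks within 50 kb, and *hhip* had the fewest of the 10. The listed coordinates of these genes spanned unlike lengths, so the searched stretch differed between genes, and the counts were not scaled to it. Among the ligands, *dhh* had 10 peaks and *shh* 3. *disp1*, whose product releases ligand from the cell that makes it, had 5.

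Of the genes that act in receiving the signal, *gas1*, which encodes a co-receptor, had 10 Bcat peaks and *lrp2*, which encodes an endocytic receptor, had 5. Among the Gli factors, *gli1* with 8 peaks stood between *gli3* with 11 and *gli2* with 2, but *gli2* was placed by a single Sox17 peak on an unplaced scaffold (scaffold_498), whose length was not known here. *zic1*, a zinc-finger gene related to the Gli family, had 18. Median widths over the 10 genes ran from 385 bp, at *hhip*, to 480 bp, at *gli3*.

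In the rows at hand, which hold only part of the Sox17 peaks, such peaks were listed for 7 of these genes. Every Sox17 peak at hand shared bases with a Bcat peak at *gli1* (4 of 4), *disp1* (3 of 3), *gas1* (2 of 2), *gli2* (1 of 1) and *gli3* (1 of 1). At *dhh* it was 4 of 7, and at *hhip* 0 of 2. Among the Sox17 peaks at hand, *hhip* was thus the only one of these 7 genes with no shared peak, on 2 peaks, and no test was made of this difference. The share over all Sox17 peaks is not given here, so these small counts cannot set any of the 7 genes apart.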

How the data were processed

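For each peak the deposited file holds the chromosome or scaffold with 2 positions, start and end. Per the study's methods, reads were cleaned by Trimmomatic and mapped by Bowtie2 (2.3.4.7 in the submitters' processing notes) to version 9.0 of the *X. tropicalis* genome. Picard and SAMtools then took out duplicates and reads with several matches, MACS2 called the peaks with input DNA of the same stage as control, and an IDR step on pseudoreplicates kept the reproducible ones. The Bcat reads form 1 dataset, so 1 list results, and its threshold sets which binding is seen. The labels call the RNA-seq controls uninjected, whereas the methods name a control morpholino.

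Starts were read as counted from 0 and are printed counted from 1. Distances count the bases between edges and are 0 where bases are shared, and 1 shared base counted as overlap. Coordinates, windows and site numbers per window came from the supplementary tables, some of which were at hand only in part. Python 3.11.15, numpy 2.4.6 and matplotlib 3.10.9 were used, and the interval routines were tested on simulated data. Members and gene lists were chosen with earlier results of these data known. The genes named are *gli1*, *hhip*, located Hedgehog genes, those next in peak count and those alike by windows. Alternatives were other distance limits, anchors, overlap rules, width limits, merging and site thresholds. A gene of the Hedgehog list is not reported here. RNA-seq samples and a v9.0 genome were not used here.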

Additional observations from a re-analysis of the deposited data

How the results depend on the processing

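Of 42 alternatives over 13 results, 34 left a value unchanged or a count within 1.5 times of that reported. The 8 that moved a value were these. The median width of the *gli1* peaks (449 bp) became 486 bp with the listed peaks alone or a limit of 25 kb, which drop the first peak, and the mean was 484 bp. Measured between centres, the median distance from windows to a Bcat peak was 53.5 bp at *gli1* in place of 0 and 33089 bp at *hhip* in place of 32822 bp, since edges are nearer than centres. With at least 2 sites of each kind, the *gli1* windows with both Sox and Tcf sites fell from 3 to 1. With a limit of 100 kb, 10 genes in place of 5 had more peaks than *gli1*, and the cause was not tested. Counted within 25 kb of the windows alone, an alternative added after seeing the data, *hhip* had 0 peaks in place of 1 and *gli1* had 7, and by that count 82 genes in place of 63 stood above *hhip*. Where the listed coordinates were the anchors, the *hhip* peak was itself an anchor and could not be lost. The number of *gli1* peaks stayed between 7 and 8, and the windows with a peak stayed at 4 and 0 under each overlap rule, with peaks at least 300 bp wide and with windows extended by 250 bp. No paired analysis was possible because the Bcat peaks come from 1 library, and the Sox17 peaks were listed without replicate numbers. The unknown depth limits what a missing peak at *hhip* can show.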
